A study of Homo sapiens with 28 samples.

Results

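The clustered protocadherins are a set of 52 protein-coding genes of 57820 genes in the tables, taken as every gene whose symbol begins with PCDHA, PCDHB or PCDHG: 15 in the alpha cluster, 16 in the beta cluster and 21 in the gamma cluster. They were read from 28 RNA-seq libraries of SEM, an established human line of B-cell acute lymphoblastic leukemia, in sets that were fitted apart: 12 libraries at 24 h and 16 at 6 h. At 24 h, CTCF-AID2 cells (4 libraries without and 4 with 5-Ph-IAA) carry a degron tag and mClover3 on endogenous CTCF and constitutive OsTIR1(F74G) from a lentiviral MND promoter, so that 5-Ph-IAA degrades CTCF, while WT cells (2 without and 2 with IAA) have no degron. By the study's methods the CTCF-AID2 cells also carry doxycycline-inducible wild-type OsTIR1 at the AAVS1 locus and an EGFP with the degron tag. At 6 h, 4 lines of the degron cells (2 libraries without and 2 with auxin each) carried added CTCF, full-length in the line named WT or lacking a part in the lines named DeltaZ1, DeltaZ10 (zinc fingers) and DeltaRBR (RNA-binding region). The labels name only IAA for these lines, whereas the study's methods name 5-Ph-IAA and add doxycycline to induce the added CTCF. Auxin against none in these lines may therefore mix loss of endogenous CTCF with doxycycline and the induced CTCF. These parts cannot be told apart here. For WT cells at 24 h the labels again name only IAA and the methods IAA with doxycycline, so that the effect in WT cells, and the difference from it, may include doxycycline. The titles give 1 µM 5-Ph-IAA at 24 h and the treatment text 10 µM. Whether replicates were grown separately is not given, and p-values then cover only the spread among these libraries, which may be technical. The B-lineage markers CD79A, CD79B, PAX5 and EBF1 exceeded 1 CPM in at least 1 library of the 24 h set, and 0 of 5 erythroid markers did.

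Clustered protocadherins are cadherin-like cell surface proteins known best from neurons, where different cells use different members and so carry different surface identities. In the alpha and gamma clusters each variable first exon has its own promoter and is spliced to constant exons that all members of the cluster share, while beta genes are single exons. CTCF binds at many of these promoters and at distal enhancers, and with cohesin it brings an enhancer and a chosen promoter together. Gamma genes fall into A and B types, which alternate along the cluster, and C types at its 3′ end.

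The gamma cluster lies on chromosome 5 between 140710081 and 140892544 of GRCh37, on the plus strand, and each of its members runs to the shared constant exons at the 3′ end. In the Gencode annotation lifted to that build, 27.5 to 64.4% of a gamma gene's exon bases are also exon bases of another member, and each gene keeps 2459 to 5752 bases of its own. The deposited counts are RSEM estimates, which divide reads from shared exons among the genes. Of the gamma values above 0, 90.6% at 24 h and 91.7% at 6 h were not whole numbers, against 16.4% of values above 0 over all genes, 0% in the alpha cluster and at most 3.85% in the beta cluster. Each gamma value is therefore uncertain in how the shared reads were divided, and a fall of 1 member and a rise of another are not independent measurements.

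A short stretch near the start recurs in many of the gamma genes. RefSeq promoter entries (250 bases before to 50 after the start, table build GRCh38.p14) were found for 19 gamma, 13 alpha and 13 beta members. A core form of the CTCF binding motif, searched in the same entries, stood in 0 of 23 gamma, 0 of 13 alpha and 0 of 13 beta entries. It stood in 1.47% of all 35116 promoter entries, too low a rate for its absence from so few entries to be telling. Binding of CTCF at these promoters was not tested. The letters CGCTGT, chosen after the sequences were seen and searched on both strands, stood in 82.6% of the 23 gamma entries (16 of 19 genes), 53.8% of the 13 alpha entries and 7.69% of the 13 beta entries, against 11.2% of all 35116 promoter entries. The windows below show the bases around these letters in genes whose levels are described next, with capitals at CGCTGT. In PCDHGB7 and PCDHGA11 the capitals mark the aligned bases of the window closest to that of PCDHGA10. Of 36 bases, capitals included, PCDHGA5 shared 27 with PCDHGA10, PCDHGC3 23, PCDHGB7 18 and PCDHGC4 17. Whether the bases outside the capitals are alike beyond chance was not tested. Each window was matched once on chromosome 5 of GRCh37, plus strand.
PCDHGB2, chr5:140739484-140739519: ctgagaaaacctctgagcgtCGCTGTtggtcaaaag
PCDHGA5, chr5:140743670-140743705: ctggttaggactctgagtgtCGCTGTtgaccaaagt
PCDHGA6, chr5:140753398-140753433: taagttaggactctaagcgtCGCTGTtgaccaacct
PCDHGA10, chr5:140792494-140792529: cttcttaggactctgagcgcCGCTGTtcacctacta
PCDHGB7, chr5:140797146-140797181: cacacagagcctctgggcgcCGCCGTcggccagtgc
PCDHGA11, chr5:140800535-140800570: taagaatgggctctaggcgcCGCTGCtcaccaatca
PCDHGC3, chr5:140855443-140855478: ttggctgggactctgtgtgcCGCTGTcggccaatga
PCDHGC4, chr5:140864515-140864550: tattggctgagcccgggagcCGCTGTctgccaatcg
The letters CGCTGT thus stood in genes that fell after 24 h of 5-Ph-IAA (PCDHGB2, PCDHGA5, PCDHGA6, PCDHGA10) and in genes that rose (PCDHGC3, PCDHGC4). Among genes with no window printed, they stood in PCDHGA7, PCDHGB4, PCDHGA8, PCDHGA9 and PCDHGB6, which fell. They also stood in PCDHGA1, PCDHGA2, PCDHGA3, PCDHGB1 and PCDHGA4, whose change did not pass. The letters were missing in PCDHGB7, PCDHGA11 and PCDHGB3, which also fell. PCDHGC5, which rose, and PCDHGA12, whose change did not pass, had no promoter entry and were not searched. No window is printed for PCDHGB3, whose closest stretch shared 14 of 36 bases with that of PCDHGA10.

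SEM cells expressed the gamma cluster, and the alpha and beta clusters were near the limit of detection. CPM, the count scaled to library size with TMM factors within a set, exceeded 1 in at least 1 library for 14 of 52 members, and all 14 were gamma genes: 10 in the 24 h set, 12 in the 6 h set, and 5 in each of the 28 libraries (PCDHGA11, PCDHGA12, PCDHGC3, PCDHGC4 and PCDHGC5). The 15 alpha genes held 46 counts over 28 libraries, and no alpha gene exceeded 0.0708 CPM. The 16 beta genes held 204 counts, with at most 0.24 CPM. PCDHA5 and PCDHB2 had 0 counts in every library, and a count of 0 allows up to 3 counts, or 0.0494 to 0.116 CPM per library, counting error only. The most abundant members that did not reach 1 CPM were PCDHA1 (10 counts over 28 libraries) and PCDHA10 (8 counts) in the alpha cluster, PCDHB3 (82 counts) and PCDHB14 (43 counts) in the beta cluster, and PCDHGB4 (mean 0.496 CPM, highest 0.931) and PCDHGA1 (mean 0.317 CPM, highest 0.78) in the gamma cluster.

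PCDHGC3, a C-type gene, was the most abundant member. It took 46 to 49% of the summed gamma TPM, a level per transcript length, in the 4 untreated CTCF-AID2 libraries, and PCDHGA12 came next at 11 to 12.2%. PCDHGC4 took 10.8 to 11.5%, which overlapped PCDHGA12, and PCDHGC5 took 9.09 to 10%, below both. PCDHGA11 followed at 6.74 to 7.51%. The C type as a whole took 66.8 to 69.5%, the A type 24.2 to 25.3% and the B type 6.31 to 7.81%. Shares of TPM, here and below, assume total RNA, as the methods describe. The labels name a 3′ kit, for which scaling by length would not apply. Reads from such a kit would lie mostly in the 3′ exons that the gamma genes share. Counts and fold changes of single gamma genes would then be doubtful too.

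**Figure D1:**
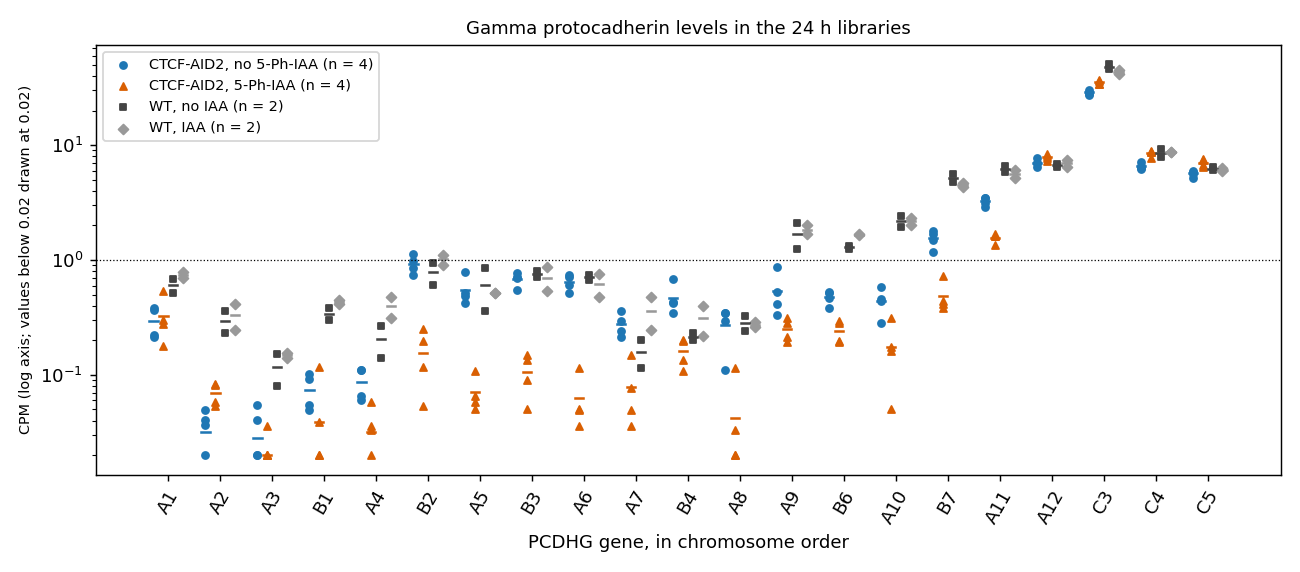
Level of each gamma gene in the 12 libraries of the 24 h set in CPM on a log axis, genes in chromosome order, 1 point a library and a bar at the group mean; the dotted line marks 1 CPM. PCDHGA11 to PCDHGC5 stand above 1 CPM in every library, and from PCDHGB2 to PCDHGA6 the 5-Ph-IAA triangles lie below every untreated point.

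After 24 h of 5-Ph-IAA in CTCF-AID2 cells the tested A and B types from PCDHGB2 to PCDHGA11 fell, and the C types rose slightly. Of the 10 members tested with limma-voom, 4 fell at least 2-fold at an adjusted p of at most 0.05 (PCDHGB2, PCDHGB7, PCDHGA10 and PCDHGA11) and 0 rose that far. Over all 13983 genes tested, 1.67% were called lower and 1.89% higher at this rule, 3.56% in either direction. By adjusted p alone, 6 members fell and 3 rose, against a background of 29.1% lower and 29.3% higher. The groups did not overlap for 8 of 10 members, against 52.4% of all genes. PCDHGA9, PCDHGA10 and PCDHGB6 passed the filter on low values only through WT libraries, PCDHGB2 through 1 untreated CTCF-AID2 library and 1 WT library with IAA, and PCDHGB7 through untreated and WT libraries. Since some passed only through groups where they were high, the counts are no support for a direction.

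PCDHGB2, a B-type gene, had 0.845, 1.14, 0.989 and 0.743 CPM in the untreated and 0.117, 0.0538, 0.197 and 0.251 CPM in the treated libraries of CTCF-AID2 cells. The groups did not overlap, and it fell by 2.69 on the log2 scale (SE 0.345, adjusted p = 1.29e-05, limma). PCDHGB7, the B-type gene nearest to the 3′ end, went from 1.51, 1.79, 1.17 and 1.7 CPM to 0.383, 0.413, 0.721 and 0.444 CPM. It fell by 1.67 (SE 0.213, adjusted p = 1.25e-05, limma), again without overlap. PCDHGA11, the A-type gene next to it, went from 3.49, 3.15, 2.93 and 3.47 CPM to 1.62, 1.63, 1.34 and 1.68 CPM. It fell by 1.06 (SE 0.115, adjusted p = 2.38e-06, limma), with the treated libraries close together.

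PCDHGA10 had 0.459, 0.439, 0.283 and 0.578 CPM without and 0.05, 0.162, 0.312 and 0.174 CPM with 5-Ph-IAA. Its groups overlapped in 1 treated library, and it fell by 1.51 (SE 0.402, adjusted p = 0.00519, limma). PCDHGB6 fell by 0.95 (SE 0.2, adjusted p = 0.000994, limma), from 0.384 to 0.528 CPM down to 0.193 to 0.295 CPM. PCDHGA9 fell by 0.97 (SE 0.344, adjusted p = 0.0257, limma). Its call rested on single libraries, with an adjusted p of up to 0.071 when 1 was left out (5-Ph-IAA replicates 2 or 4, or untreated replicate 1) and 0.0591 with no filter.

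The 3 C-type genes rose by less. PCDHGC3 went from 28.1, 29.3, 27.6 and 30.5 CPM to 36.2, 37.4, 34.1 and 34.3 CPM. The groups did not overlap, and its log2 fold change was 0.30 (SE 0.0471, adjusted p = 9.37e-05, limma). PCDHGC4 rose from 6.24 to 7.1 CPM up to 7.67 to 8.97 CPM (log2 fold change 0.37, SE 0.0698, adjusted p = 0.000373, limma). PCDHGC5 rose from 5.22 to 5.96 CPM up to 6.51 to 7.61 CPM (log2 fold change 0.31, SE 0.0672, adjusted p = 0.00135, limma). PCDHGA12, the A-type gene nearest to the C types, had 6.51 to 7.76 CPM without and 7.3 to 8.42 CPM with 5-Ph-IAA, and its log2 fold change of 0.16 (SE 0.0678) did not pass (adjusted p = 0.0571, limma). It passed without replicate 2 of the untreated libraries (0.19, adjusted p = 0.0279) or replicate 4 of the treated ones (0.17, adjusted p = 0.0466).

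**Figure D2:**
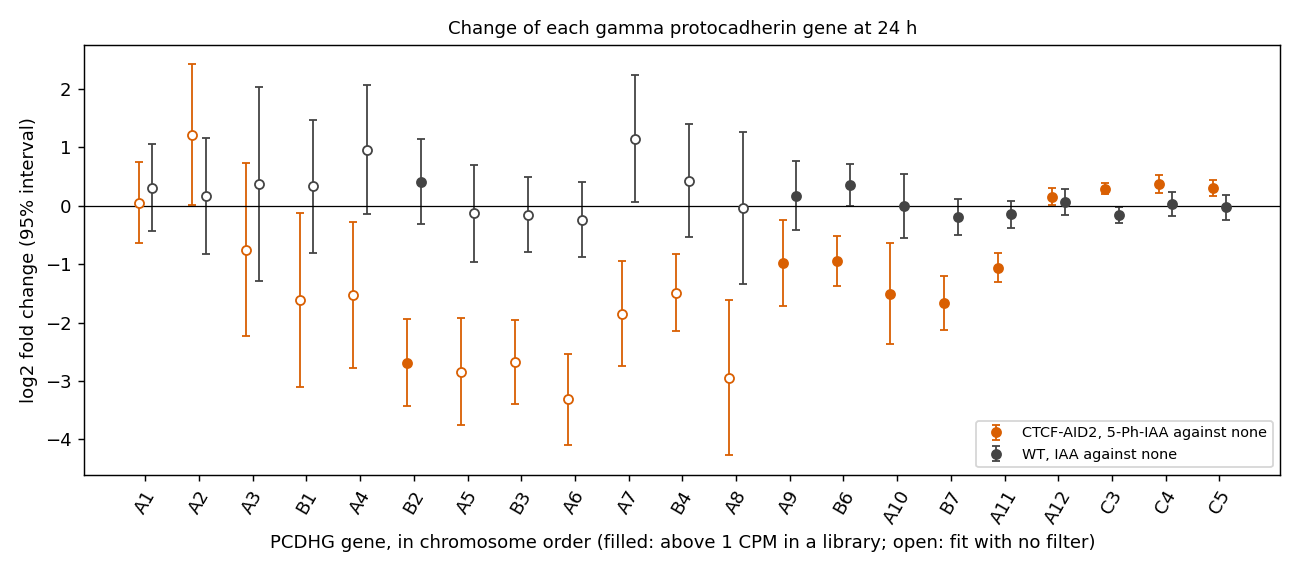
Log2 fold change of each gamma gene at 24 h with its 95% interval, genes in chromosome order; orange is CTCF-AID2 cells with 5-Ph-IAA against none and dark grey WT cells with IAA against none, filled points come from the fit with the filter on low values and open points from the fit with no filter. In CTCF-AID2 cells the points from PCDHGB2 to PCDHGA8 lie between -3.32 and -1.49, those from PCDHGA9 to PCDHGA11 between -1.67 and -0.95, and those from PCDHGA12 on between 0.16 and 0.37.

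Several gamma genes that did not reach 1 CPM at 24 h fell by more. With no filter on low values, 31692 genes were tested, among them 40 members, of which 11 were called lower and 0 higher, against 1.8% lower and 2.47% higher over all genes. Besides the 4 above, these were 6 gamma genes in the middle of the cluster and PCDHB4. PCDHGA6 had 0.515, 0.714, 0.605 and 0.743 CPM without and 0.05, 0.0359, 0.0492 and 0.116 CPM with 5-Ph-IAA, or 142 against 13.4 estimated counts over 4 libraries each. It fell by 3.32 (SE 0.365, adjusted p = 4.13e-06, limma with no filter). PCDHGA5 fell by 2.84 (SE 0.427, adjusted p = 9.45e-05) and PCDHGB3 by 2.68 (SE 0.335, adjusted p = 1.52e-05), each without overlap of the groups. PCDHGA8 fell by 2.95 (SE 0.621, adjusted p = 0.00188) from 59.9 to 10.3 counts. PCDHGA7 fell by 1.85 (adjusted p = 0.00344) and PCDHGB4 by 1.49 (adjusted p = 0.00167). PCDHB4 held 8 counts over 28 libraries, so its fitted value of -1.24 (adjusted p = 0.0246) rests on almost no reads. At the 5′ end of the cluster the fits did not pass: PCDHGA1 had a log2 fold change of 0.05 (SE 0.323), PCDHGA2 of 1.22 (SE 0.566), PCDHGA3 of -0.75 (SE 0.693), PCDHGB1 of -1.62 (SE 0.698) and PCDHGA4 of -1.53 (SE 0.583), at adjusted p of 0.934, 0.145, 0.492, 0.114 and 0.0702. PCDHGB1 passed without replicate 1 of the treated libraries (-2.35, adjusted p = 0.00798) and PCDHGA4 without replicate 4 (-1.91, adjusted p = 0.0306), so both rest on single libraries.

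The sum over the gamma cluster moved little while its makeup shifted. Summed gamma CPM was 58.8 ± 2.43 (SD, n = 4) without and 62.8 ± 1.79 (SD, n = 4) with 5-Ph-IAA, and the ranges, 56.3 to 61.1 and 61.1 to 64.8, barely met. The B type went from 4.17 ± 0.394 to 1.19 ± 0.286 CPM and the A type from 13.5 ± 0.515 to 10.5 ± 0.287 CPM, while the C type went from 41.1 ± 1.77 to 51.1 ± 1.89 CPM (SD, n = 4 each). As a share of gamma TPM, the C type went from 68.3% ± 1.11 to 80.2% ± 0.878 and the B type from 7% ± 0.637 to 1.88% ± 0.502 (SD, n = 4). Summed beta CPM was 0.0735 to 0.116 without and 0.0193 to 0.0538 with 5-Ph-IAA, and summed alpha CPM 0 to 0.0368 and 0 to 0.0179. These rest on at most 7 beta and 2 alpha counts a library, near the limit of detection. All these sums over chosen members are given as a description, with no test.

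**Figure D3:**
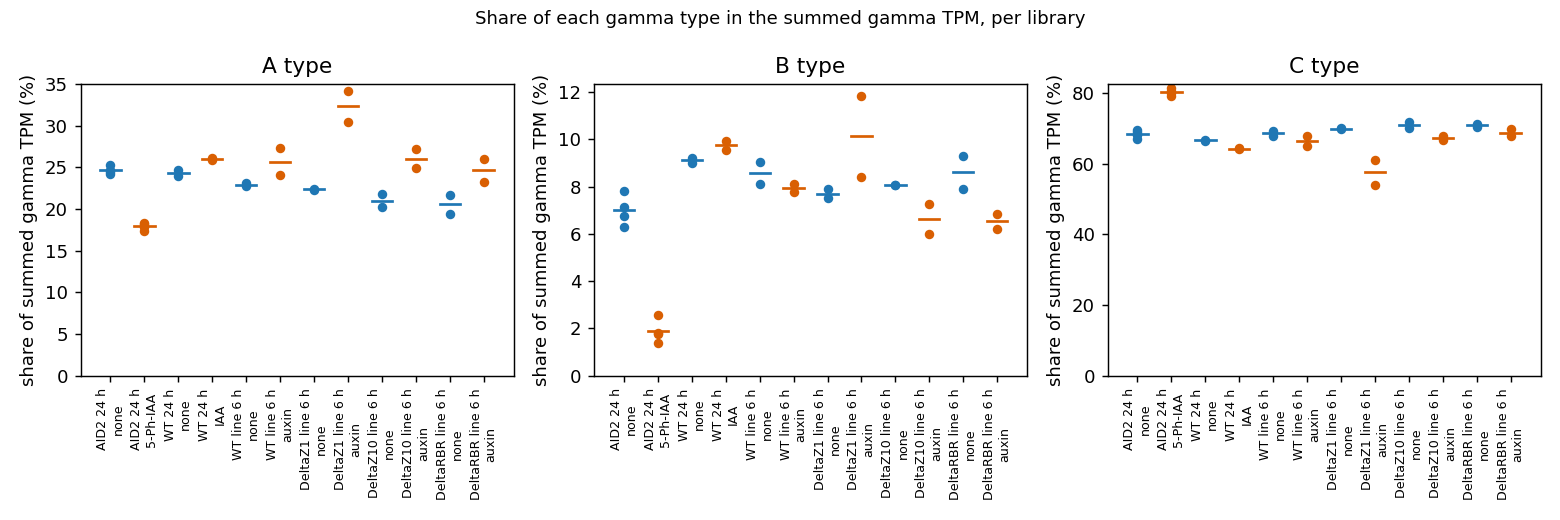
Share of the summed gamma TPM (%) taken by the A, B and C types in each library, 1 point a library and a bar at the group mean, blue without and orange with auxin. The treated CTCF-AID2 libraries at 24 h have the highest C-type shares, 79.1 to 81.2%, and the lowest B-type shares, 1.4 to 2.59%, of the 28 libraries; the DeltaZ1 line with auxin has the lowest C-type shares, 53.9 and 61.1%.

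WT cells, which have no degron, were treated with IAA, a related auxin and not the compound given to CTCF-AID2 cells. With IAA for 24 h, 0 of 10 members passed an adjusted p of 0.05 in limma, edgeR or DESeq2 (1 had an unadjusted p under 0.05 in limma, PCDHGC3), where 18.9% of all genes did and 1.09% were called at 2-fold. PCDHGB2 had 0.611 and 0.947 CPM without and 0.913 and 1.11 CPM with IAA (log2 fold change 0.42, SE 0.338). PCDHGA11 had 5.81 and 6.65 CPM against 5.17 and 6.03 CPM (-0.15, SE 0.109). PCDHGC3 had 46 and 50.8 CPM against 41.8 and 44.9 CPM (-0.16, SE 0.0632, adjusted p = 0.0997, limma), so the groups did not overlap but the test did not pass.

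The effect of 5-Ph-IAA in CTCF-AID2 cells minus the effect of IAA in WT cells passed for 8 of 10 members (39.5% of all genes did), and 4 were called lower at 2-fold, against 2.23% of all genes. The log2 difference was -3.10 for PCDHGB2 (SE 0.483, adjusted p = 0.000183, limma), -1.48 for PCDHGB7, -1.31 for PCDHGB6, -1.50 for PCDHGA10 and -0.92 for PCDHGA11. It was 0.45 for PCDHGC3 (SE 0.0788, adjusted p = 0.000431, limma), 0.34 for PCDHGC4 and 0.33 for PCDHGC5. The difference missed the threshold for PCDHGA9 (-1.15, adjusted p = 0.0514, limma) and for PCDHGA12 (0.09, adjusted p = 0.598). PCDHGA10 lost its call without replicate 2 of untreated WT cells (adjusted p = 0.0601) or replicate 1 of WT cells with IAA (adjusted p just above 0.05). The differences of PCDHGC4 and PCDHGC5 were near the threshold (adjusted p = 0.0372 and 0.0417) and each lost its call in 9 of 12 fits without 1 library, with an adjusted p of up to 0.214 for PCDHGC4 without replicate 2 of untreated WT cells and up to 0.179 for PCDHGC5 without replicate 2 of WT cells with IAA. The compounds and doses differed between these cells, and WT libraries held fewer non-whole counts (2.73 to 2.82% of all 57820 genes, those at 0 included, against 7.08 to 7.84%), so line and counting cannot be told apart in levels. Untreated WT cells had 4.76 and 5.62 CPM of PCDHGB7 and 2.43 and 1.93 CPM of PCDHGA10, and untreated CTCF-AID2 cells at most 1.79 and 0.578 CPM.

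CTCF mRNA, in contrast to the protein the degron targets, went from 146 ± 3.08 to 249 ± 3.37 CPM (SD, n = 4) in CTCF-AID2 cells with 5-Ph-IAA (log2 fold change 0.78, SE 0.025, adjusted p = 1.1e-11, limma), so its RNA does not check the loss of the protein. Summed T and NK markers held 65.6 to 68.8 CPM without and 77.9 to 82.3 CPM with 5-Ph-IAA (NKG7 and TRAC above 1 CPM of 8, 2 at 0 throughout), and neuronal and glial markers 156 to 159 and 175 to 180 CPM (SYT1, MAP2, NCAM1 and TUBB3 above 1 CPM of 10 listed, 1 at 0). Myeloid markers held 20.5 to 23 and 17.1 to 18.6 CPM (2 of 8 above 1 CPM, LYZ and ITGAM, 1 at 0) and stromal markers 76.8 to 85.1 and 84.5 to 86.4 CPM (PDGFRB above 1 CPM of 5, 1 at 0), while 3 of 5 erythroid markers were at 0. Their part in the gamma results was not tested.

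Before the 6 h results, 1 pair of libraries needs naming. In the DeltaZ1 line with auxin the replicates differed by a mean chi-square of 179 per gene, against 3.14 to 49.7 in the other pairs of replicates, and replicate 2 held 28.4 CPM of PCDHGC3 where replicate 1 held 39.5 CPM. That value belongs to the pair and does not show which of the 2 differs from the other libraries. Replicate 1 in turn held 25.1 CPM of summed A type where replicate 2 held 19.3 CPM. Results that rest on replicate 2 are given with and without it, though replicate 1 may be the one that differs.

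At 6 h PCDHGA12 rose, and PCDHGC4 and PCDHGC5 fell, on the mean of the 4 lines. Neither PCDHGC4 nor PCDHGC5 passed an adjusted p of 0.05 in any single line (limma). Averaged over the 4 lines, PCDHGA12 was the one member of 12 tested that rose, and 7 fell: PCDHGA5, PCDHGA6, PCDHGA7, PCDHGA10, PCDHGB3, PCDHGC4 and PCDHGC5. The background of this mean was 27.9% of 13898 genes higher and 23.6% lower, and 0 members were called at 2-fold by limma, edgeR or DESeq2 (10 of 12 had an unadjusted p under 0.05 in limma, and 1.45% of all genes were called). PCDHGA5, PCDHGA7 and PCDHGB3 passed the filter only through untreated libraries, and PCDHGA6 through those and 1 treated DeltaRBR library, so they could fall more easily than rise and the count is no support for a direction. With no filter the same 8 members passed, beside PCDHGA1 (-0.82, adjusted p = 0.0472, limma, lost in 13 of 16 fits without 1 library) and PCDHB15, which held 10 counts over 28 libraries. Without auxin replicate 2 of DeltaZ1, which leaves 1 auxin library of that line, PCDHGA12 had 0.52, PCDHGC4 -0.37 and PCDHGC5 -0.34.

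Markers of other cell types moved with auxin at 6 h as well, and their part in the gamma results was not tested. Neuronal and glial markers (3 of 10 listed above 1 CPM, SYT1, MAP2 and NCAM1, 2 at 0) held 172 to 174 CPM without and 191 to 194 CPM with auxin in the WT line, 153 to 154 and 212 to 221 CPM in DeltaZ1, 156 to 157 and 175 to 178 CPM in DeltaZ10, and 159 to 165 and 185 to 187 CPM in DeltaRBR. Myeloid markers (2 of 8 above 1 CPM, LYZ and ITGAM, 1 at 0) held 11.7 to 18.8 CPM in the untreated and 7.45 to 10.7 CPM in the treated libraries of the 4 lines. Stromal markers (2 of 5 above 1 CPM, COL1A1 and PDGFRB, 2 at 0) held 87.6 to 98.6 CPM without and 72.6 to 79.6 CPM with auxin outside DeltaZ1, where they held 91.4 to 98.4 and 75.8 to 105 CPM. T and NK markers (NKG7 and TRAC above 1 CPM of 8, 1 at 0) held 60.1 to 70.2 and 61.5 to 69.6 CPM, and 4 of 5 erythroid markers were at 0.

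PCDHGA12 had 8.26 and 7.45 CPM without and 10.1 and 10.5 CPM with auxin in the WT line, and 6.55 and 8.17 against 10.5 and 12.4 CPM in the DeltaZ10 line. It had 8.29 and 7.98 against 13.8 and 9.83 CPM in the DeltaZ1 line, and 6.72 and 7.8 against 9.03 and 9.35 CPM in the DeltaRBR line. Both auxin libraries of every line stood above both untreated ones, and the mean log2 fold change was 0.46 (SE 0.0811, adjusted p = 0.000567, limma). By line it passed in DeltaZ10 (0.63, adjusted p = 0.0164, limma) and DeltaZ1 (0.50, adjusted p = 0.0281, limma). In DeltaZ1 it was 0.76 without replicate 2 of the auxin libraries, a fit that leaves 1 auxin library of the line. The DeltaZ1 call was lost without any other of the line's libraries (adjusted p of 0.0872 to 0.17) and the DeltaZ10 call without untreated replicate 1 (adjusted p = 0.109) or auxin replicate 2 (adjusted p = 0.12). It was 0.39 (adjusted p = 0.155) in the WT line and 0.32 (adjusted p = 0.246) in DeltaRBR.

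Of the C types, PCDHGC4 held 8.31 to 9.34 CPM without and 6.89 to 7.48 CPM with auxin in the WT line, and 9.36 to 9.5 against 5.16 to 8.15 CPM in DeltaRBR, and its mean log2 fold change was -0.50 (SE 0.138, adjusted p = 0.00909, limma). PCDHGC5 fell by 0.41 on average (SE 0.0991, adjusted p = 0.00418, limma), and PCDHGC3 had -0.16 (SE 0.0672, adjusted p = 0.0642), which passed without auxin replicate 1 of DeltaZ1 (-0.22, adjusted p = 0.0017) or auxin replicate 2 of DeltaZ10 (-0.21, adjusted p = 0.0175). At 24 h in CTCF-AID2 cells the same genes rose by 0.37, 0.31 and 0.30, in libraries fitted apart, from cells without added CTCF. The difference between the times was not tested. Summed gamma CPM went from 83.1 ± 1.84 to 76.9 ± 3.13 in the WT line, from 77.3 ± 2.42 to 67.4 ± 12.1 in DeltaZ10 and from 78.2 ± 1.09 to 68.8 ± 1.23 in DeltaRBR (SD, n = 2 each). In DeltaZ1 it went from 74.9 ± 0.402 to 74.7 ± 15.9, with 86 CPM in auxin replicate 1 and 63.4 CPM in replicate 2.

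In the middle of the cluster, PCDHGB3 had a mean of -0.67 (SE 0.134, adjusted p = 0.00132, limma), PCDHGA7 of -0.85 (SE 0.196, adjusted p = 0.00337), PCDHGA5 of -0.68 (SE 0.206, adjusted p = 0.0157) and PCDHGA6 of -0.61 (SE 0.174, adjusted p = 0.0113). PCDHGA10 had -0.59 (adjusted p = 0.0174, limma, and 0.0568 with DESeq2). PCDHGB2, the most lowered tested member at 24 h, had -0.36 (SE 0.156, adjusted p = 0.0741), with 1.06 to 2.26 CPM in the 8 untreated and 0.692 to 1.62 CPM in the 8 treated libraries. It passed without auxin replicate 2 of DeltaZ10 (-0.51, adjusted p = 0.0099) or of the WT line (-0.45, adjusted p = 0.0418).

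Single lines gave few calls, and those of the WT, DeltaZ1 and DeltaRBR lines changed with the library left out. In the WT line 2 members were called lower (1.01% of all genes): PCDHGA6 with 1.56 and 1.83 CPM without and 0.599 and 0.849 CPM with auxin (-1.20, SE 0.324, adjusted p = 0.029, limma), and PCDHGA7 with 1.01 and 0.665 against 0.15 and 0.384 CPM (-1.64, SE 0.401, adjusted p = 0.0196). PCDHGA6 lost its call without any 1 of its 4 libraries (adjusted p of 0.0875 to 0.169), and PCDHGA7 without auxin replicate 1 (adjusted p = 0.128). PCDHGA7 passed the filter through 1 untreated library of this line, so that its call depends on the filter, and with no filter 0 members were called (adjusted p = 0.061 for PCDHGA6 and 0.0504 for PCDHGA7). In DeltaRBR 2 members were called lower (0.612% of all genes): PCDHGA10 with 0.879 and 0.748 against 0.28 and 0.345 CPM (-1.33, SE 0.367, adjusted p = 0.0396, limma), and PCDHGB3 with 1.22 and 1.33 against 0.724 and 0.553 CPM (-1.01, SE 0.259, adjusted p = 0.0287). Both lost the call without any 1 of the line's 4 libraries (adjusted p of 0.0976 to 0.205 and of 0.0829 to 0.204) and with no filter (0.0949 and 0.0743). PCDHGB3 passed the filter through untreated libraries, among them both of this line. In DeltaZ10, 0 members were called at 2-fold by limma, edgeR or DESeq2 (1.78% of all genes by limma; 4 members had an unadjusted p under 0.05), and PCDHGA12 alone passed by adjusted p, as 17.7% of all genes did.

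In the DeltaZ1 line PCDHGB7 and PCDHGA11, neighbors in the cluster, rose. PCDHGB7 had 1.87 and 2.55 CPM without and 4.24 and 5.04 CPM with auxin (log2 fold change 1.09, SE 0.213, adjusted p = 0.00289, limma). PCDHGA11 had 3.65 and 3.85 against 7.31 and 7.01 CPM (0.93, SE 0.139, adjusted p = 0.000663, limma). Without replicate 2 of the auxin libraries the fold changes were 0.96 and 0.97. That fit leaves 1 auxin library of the line, so no p-value is given for it. In each gene both auxin libraries stood above both untreated ones and above the 14 other libraries of the 6 h set. Fitted on the line's own 4 libraries alone, neither passed (adjusted p = 0.127 for PCDHGB7 and 0.109 for PCDHGA11, limma). In that fit 2 of 13556 genes passed, against 4673 of 13898 with the spread shared by all lines. For the WT line the same fits passed 3629 of 13550 genes and 1920 of 13898. The p-values of the DeltaZ1 line, and the shares of all genes beside them, thus depend on the shared spread. PCDHGA5 fell by 1.38 (adjusted p = 0.035, limma) and PCDHGB3 by 0.82 (adjusted p = 0.0362, limma). Both lost the call without either untreated library or auxin replicate 2 (in the last case with fold changes of -0.50 and -0.52). By adjusted p alone 5 of 12 members passed, against 33.6% of all genes. At 2-fold 1 was called in each direction, against 1.27% of all genes higher and 1.71% lower. Without replicate 2 of the auxin libraries neither of these stayed at 2-fold (0.96 for PCDHGB7 and -0.50 for PCDHGA5). The C type took 53.9 and 61.1% of gamma TPM with auxin, against 69.8 and 70% without.

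**Figure D4:**
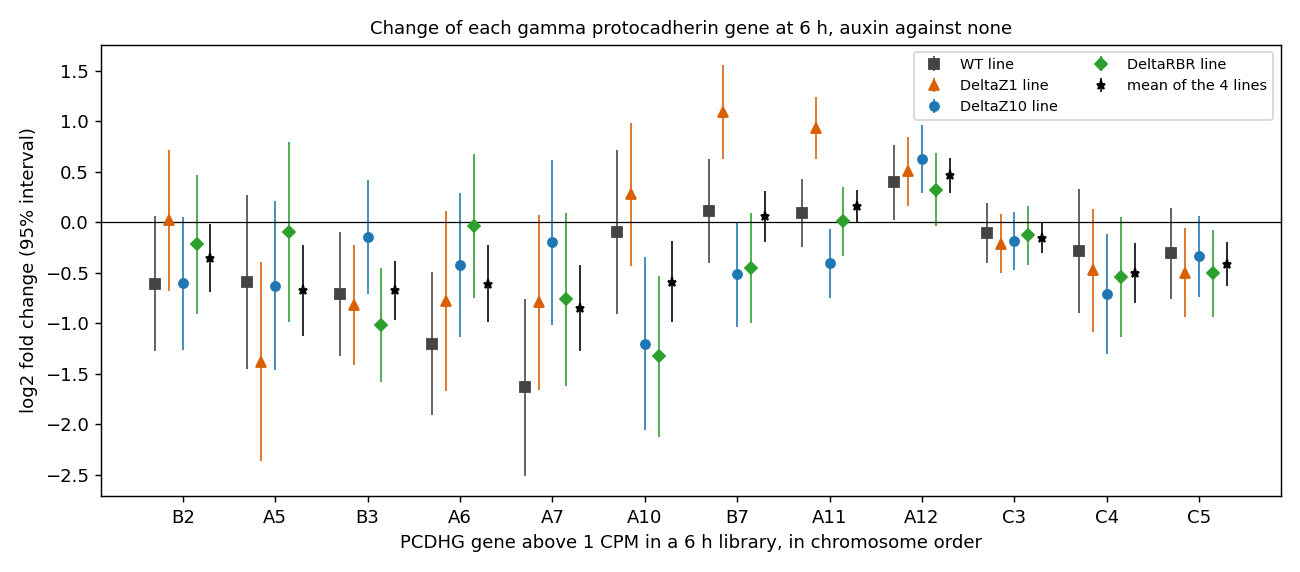
Log2 fold change of the 12 gamma genes tested at 6 h, auxin against none, with 95% intervals, for the WT, DeltaZ1, DeltaZ10 and DeltaRBR lines and their mean (star), genes in chromosome order. PCDHGA12 is above 0 in each line, PCDHGC3, PCDHGC4 and PCDHGC5 are below 0 in each line, and PCDHGB7 and PCDHGA11 are highest in the DeltaZ1 line, at 1.09 and 0.93.

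The difference between lines was then tested. The effect in DeltaZ1 minus that in the WT line was 0.84 for PCDHGA11 (95% interval 0.39 to 1.29, adjusted p = 0.0947, limma) and 0.98 for PCDHGB7 (0.292 to 1.68, adjusted p = 0.169), and 0 members passed in limma, edgeR or DESeq2, where 0.201% of all genes did in limma. Without auxin replicate 2 of DeltaZ1 the differences were 0.89 and 0.87, and without auxin replicate 1 they were 0.82 and 1.10. Each of these fits leaves 1 auxin library of that line, which is assumed to vary like the others. For DeltaZ10 and DeltaRBR 0 members passed (0.036% and 0% of all genes), with 2 members each at an unadjusted p under 0.05. Without auxin, 0 members passed between a deletion line and the WT line (lowest adjusted p 0.574, limma; 1 or 2 members a line at an unadjusted p under 0.05). Over 13898 genes limma and edgeR passed 0 and DESeq2 17 in DeltaZ1, 1 in DeltaZ10 and 15 in DeltaRBR, with 505, 538 and 690 genes at an unadjusted p under 0.05 in limma.

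Other genes around and beside the cluster were read from 4 lists, beside 29.3% of all genes that rose and 29.1% that fell in CTCF-AID2 cells at 24 h. Of 12 non-clustered protocadherins, 4 were tested at 24 h in CTCF-AID2 cells, and 2 rose and 2 fell (median log2 fold change 0.24, all genes -0.00047). PCDH9 rose by 1.11 on the log2 scale, from 9.02 ± 0.315 to 19.5 ± 1.79 CPM, and PCDH8 fell by 1.36, from 2.46 ± 0.452 to 0.932 ± 0.0827 CPM (SD, n = 4; adjusted p = 2.08e-08 and 7.22e-06, limma). Of 21 tested neighbors at 5q31, 8 rose and 6 fell (median -0.03), with DIAPH1, an actin nucleator, at 0.41 and TAF7, a subunit of the general transcription factor TFIID, at -0.32. Of 26 tested genes for chromosome architecture and silencing of the cluster, 14 rose and 4 fell (median 0.11), led by STAG1, a cohesin subunit, at 1.27 (SE 0.0298, adjusted p = 5.85e-13, limma) and CTCF. Of 13 tested intracellular partners, 9 rose and 1 fell (median 0.25). NCKAP1, a subunit of the WAVE complex that drives actin branching, fell by 1.87 (SE 0.0893, adjusted p = 6.37e-10, limma), and CYFIP2, another WAVE subunit, had 0.36.

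In WT cells with IAA, where 18.9% of all genes passed and the median of all genes was 0.0072, 1 of the 4 non-clustered protocadherins rose (median log2 fold change 0.07), 3 of 21 neighbors rose and 2 fell (0.01), 7 of 26 architecture genes fell with 0 rising (-0.10), and 2 of 13 partners rose and 6 fell (-0.13). At 6 h over the 4 lines, where 27.9% of all genes rose and 23.6% fell and their median was 0.02, 1 of 4 non-clustered protocadherins rose and 2 fell (-0.20), 5 of 19 neighbors rose and 4 fell (0.01), 9 of 26 architecture genes rose and 6 fell (0.03), and 6 of 13 partners rose and 4 fell (-0.03). CTCF mRNA rose by 0.67 on the log2 scale on average (SE 0.0452, adjusted p = 4.61e-07, limma). The study's methods induce the added CTCF in these lines with doxycycline, and the gene counts do not separate it from endogenous CTCF.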

How the data were processed

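RNA-seq of 28 libraries was analyzed from gene tables that the authors deposited. Trimming was by Trim Galore 0.6.3, alignment to GRCh37 by STAR 2.7.9a and quantification on Gencode genes by RSEM 1.3.1, as the submitters' processing notes and the methods of the study name them. The deposited values are expected counts, TPM and FPKM per gene, and FPKM was not used here. The labels name a 3′ kit where the methods describe total RNA after ribosomal depletion, and whether counting used strand is not given in the sources used here. Matrices that repeat the 6 h values were not used.

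Expected counts were rounded to whole numbers, and 92 spike-in entries were left out. Totals ran from 25.8 to 60.7 M per library. Each set was fitted with limma 3.58.1 (voom, TMM factors from edgeR 4.0.16, R 4.3.3) and a mean per group, on genes that exceeded 1 CPM in any library of that set (13983 at 24 h, 13898 at 6 h), with Benjamini-Hochberg adjustment over all of them. Of the 14 comparisons, 3 were at 24 h. "Rose" and "fell" mean an adjusted p of at most 0.05, and "called" adds a 2-fold change. The sum over the B-lineage marker list is not reported here. Named genes were every member above 1 CPM in a library, the 2 most abundant others of each cluster, CTCF, and the 2 lowest adjusted p of each list; the low gamma genes and PCDHB4 in the fit with no filter, and PCDHB15, were named after their values were seen. Members and lists were chosen with earlier results of these data known. Alternatives were edgeR, DESeq2 1.42.0, other scaling and filters, the compared groups alone, a replicate block, unrounded counts and leaving out each library.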

Additional observations from a re-analysis of the deposited data

Results flagged for a closer look

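In CTCF-AID2 cells the effect of 5-Ph-IAA at 24 h differed from that of IAA in WT cells for 8 gamma protocadherins, by a test of the difference itself (limma, adjusted p of at most 0.05), as it did for 39.5% of all genes. The differences in log2 fold change were -3.10 for PCDHGB2, -1.50 for PCDHGA10, -1.48 for PCDHGB7, -1.31 for PCDHGB6, -0.92 for PCDHGA11, 0.33 for PCDHGC5, 0.34 for PCDHGC4 and 0.45 for PCDHGC3. PCDHGC4 and PCDHGC5 each lost the call in 9 of 12 fits without 1 library and with no filter (adjusted p = 0.0947 and 0.109). In the groups of 4 libraries, 28 sets of values (14 genes in 2 groups) were checked for a library far from the others, and 0 were found.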

How the results depend on the processing

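At 24 h the 4 members called in CTCF-AID2 cells and the 4 in the difference from WT cells were 3 to 5 and 4 to 5 under edgeR, DESeq2, other scaling, CPM above 1 in at least 2 libraries, unrounded counts, the compared groups alone and the block, and 4 to 6 and 4 to 5 without a library. They became 11 and 11 with no filter, 8 and 8 with a mean CPM above 0.25, and 11 and 12 with edgeR and no filter, where more members were tested (the last filters were chosen after seeing the data). At 6 h the counts were small and moved by 1 or 2. The 2 calls of the WT line became 0 with no filter, 1 with CPM above 1 in at least 2 libraries and 0 to 1 without a library. The 2 of DeltaZ1 became 1 with edgeR, DESeq2, no filter or CPM above 1 in at least 2 libraries, 0 with the compared groups alone and 0 to 3 without a library. The 2 of DeltaRBR became 0 with DESeq2, 1 with no filter, CPM above 1 in at least 2 libraries, the compared groups alone or unrounded counts, and 0 without a library. The 0 of DeltaZ10 and of the mean became 1 with no filter, 1 in DeltaZ10 with edgeR and no filter, and 0 to 1 without a library. The 0 of the DeltaZ1 difference was 0 to 1 without a library, and the 0 of DeltaZ1 against the WT line became 1 with edgeR and no filter. The cause was not tested where more or fewer genes tested does not account for it. No called member changed direction. Depth limits the alpha and beta genes and the low gamma genes.

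Replicate numbers were not taken to pair the libraries, since the labels give them no meaning and not every pair correlated above 0.1: same-numbered libraries correlated at -0.297 to 0.107 in CTCF-AID2 cells and 0.0625 in WT cells at 24 h, and at 6 h at 0.234 in the WT line, 0.315 in DeltaZ10, 0.201 in DeltaRBR and -0.177 in DeltaZ1. A replicate block gave 5 calls in CTCF-AID2 cells at 24 h, 4 in the difference, and 1 in place of 2 in DeltaRBR, where PCDHGA10 lost its call (adjusted p = 0.0559). PCDHGA12 at 24 h then passed (0.16, adjusted p = 0.0295).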
